A study of Mus musculus with 16 samples.

Results

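Flavin-containing monooxygenases are enzymes of the endoplasmic reticulum that use FAD and NADPH to add an oxygen atom to nitrogen or sulfur atoms of drugs, dietary amines and endogenous small molecules. They work beside the cytochrome P450 enzymes but take electrons from NADPH directly, without a separate reductase, and hold the activated oxygen on the flavin until a substrate arrives. Individual members are known for particular tissues in mammals, such as FMO2 for lung and FMO5 for liver. The genes described here are Fmo1, Fmo2, Fmo4 and Fmo5, 4 of 55385 genes in the count table, found by matching gene identifiers without their version to these symbols. They were picked with their fed and fasting levels in these libraries known, so their levels and fold changes are given as a description, without a test.

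Short-read RNA-Seq was performed on muscle, liver, white adipose tissue, brown adipose tissue, heart, spleen, kidney and lung of male C57BL/6 mice that were acquired at 12 weeks of age. Wild-type mice were either fed standard chow without restriction or fasted for 24 h, with 3 mice per group. Tissue of the 3 mice was pooled before RNA extraction, so each tissue and treatment is 1 library, 16 in all, and no difference between a fed and a fasting library has a replicate check. The 8 tissues of a treatment come from the same pool of mice.

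Library totals lay between 14245178 and 36069968 counts, so that 3 counts, the floor used here, corresponded to 0.0832 to 0.211 CPM, the count scaled to the library total. Each tissue carried the markers of its main cells, with a summed level of 107310 CPM in the fed and 108800 CPM in the fasting liver for 7 hepatocyte genes, and of 15580 and 16540 CPM in lung for 4 club cell genes. Pancreatic acinar genes were at 512 CPM in the fed spleen and 11.7 CPM in the fasting spleen, lower in 7 of 7, and at 103 and 220 CPM in liver, higher in 6 of 7. All 37 mitochondrial genes were listed at 0 counts in every library.

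Fmo1, Fmo2 and Fmo4 lie side by side on the minus strand of chromosome 1 (GRCm38), within 105539 bases. Fmo4 (ENSMUSG00000026692.12) is at chr1:162793188-162813972, Fmo1 (ENSMUSG00000040181.14) at chr1:162829561-162866610 and Fmo2 (ENSMUSG00000040170.13) at chr1:162874317-162898726, with gaps of 15588 and 7706 bases between neighbours. Fmo5 (ENSMUSG00000028088.14) stands apart on the plus strand of chromosome 3, at chr3:97628804-97655282. No other gene of the table overlapped any of these spans on either strand. Their coding sequences, taken as the longest open reading frame of a GENCODE transcript, held 1599 bases in Fmo1, 1608 in Fmo2, 1683 in Fmo4 and 1602 in Fmo5. Pairs of them were identical at 61.3% (Fmo1 and Fmo5) to 65.1% (Fmo2 and Fmo4) of aligned bases, and no run of 50 bases occurred in transcripts of more than 1 of the 4. The stretch of 60 coding bases that encodes the glycine-rich run of the FAD-binding site is shown because it holds a cofactor site that the enzymes have in common. Capitals mark the 37 bases that all 4 genes share:
Fmo1: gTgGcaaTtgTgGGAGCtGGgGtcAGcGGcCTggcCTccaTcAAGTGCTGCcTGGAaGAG
Fmo2: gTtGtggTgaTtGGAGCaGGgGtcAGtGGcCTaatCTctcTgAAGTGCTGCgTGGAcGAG
Fmo4: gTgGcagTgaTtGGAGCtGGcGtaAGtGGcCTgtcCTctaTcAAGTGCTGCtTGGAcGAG
Fmo5: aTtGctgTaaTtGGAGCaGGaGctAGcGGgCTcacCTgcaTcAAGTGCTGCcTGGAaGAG

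Of all 50-base runs in its transcripts, Fmo1 had 443 of 6314 (7.02%) in transcripts of 26 other genes on either strand, Fmo5 had 25 of 5764 (0.434%) in transcripts of 436 other genes, and Fmo2 and Fmo4 had none of 5648 and 3698. How reads from such runs were counted is not given in the sources used here.

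Promoter sequences, from 250 bases before to 50 bases after a start site, were taken from RefSeq (GRCm38.p6) for Fmo2, which has 2 overlapping windows, Fmo4 and Fmo5. Fmo1 had no promoter entry. The windows of Fmo2 and Fmo5 are shown because Fmo2 was higher on fasting in all 8 tissues and Fmo5 was not, and that of Fmo4 is not shown. Whether these sequences bear on the fasting levels was not tested. Capitals mark matches to 4 motifs searched on both strands. The glucocorticoid receptor motif was spelled AGAACA. For FoxO transcription factors the search used GTAAACA. The motif shared by many other nuclear receptors was spelled AGGTCA. The TATA box was searched for with the letters TATAAA. The motifs as spelled do not overlap each other in these windows. The windows below are Fmo2 at chr1:162898709-162899008 (minus strand), Fmo2 at chr1:162898444-162898743 (minus strand) and Fmo5 at chr3:97628769-97629068 (plus strand):
Fmo2 upstream window: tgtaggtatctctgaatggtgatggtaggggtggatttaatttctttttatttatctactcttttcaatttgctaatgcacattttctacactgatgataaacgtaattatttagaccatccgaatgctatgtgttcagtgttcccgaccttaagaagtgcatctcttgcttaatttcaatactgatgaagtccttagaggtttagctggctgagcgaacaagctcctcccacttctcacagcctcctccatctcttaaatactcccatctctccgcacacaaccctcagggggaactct
Fmo2 downstream window: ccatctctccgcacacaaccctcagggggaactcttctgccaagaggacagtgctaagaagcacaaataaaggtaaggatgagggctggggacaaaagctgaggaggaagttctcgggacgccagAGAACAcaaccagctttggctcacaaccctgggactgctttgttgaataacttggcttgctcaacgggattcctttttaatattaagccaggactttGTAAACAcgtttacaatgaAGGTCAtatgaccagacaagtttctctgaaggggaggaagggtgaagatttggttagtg
Fmo5: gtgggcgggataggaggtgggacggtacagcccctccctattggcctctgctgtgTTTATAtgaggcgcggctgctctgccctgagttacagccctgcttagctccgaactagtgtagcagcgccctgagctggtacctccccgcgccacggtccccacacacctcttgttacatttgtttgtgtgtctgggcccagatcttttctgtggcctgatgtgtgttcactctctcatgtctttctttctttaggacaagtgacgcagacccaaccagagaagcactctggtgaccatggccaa

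The downstream Fmo2 window held AGAACA at -125, GTAAACA at -28 and AGGTCA at -9 from its start site, and the upstream window held none of the 4. Of 32851 promoters of the same length, 19.0% held AGAACA, 3.65% GTAAACA, 16.3% AGGTCA and 13.6% TATAAA on either strand. The Fmo5 window held TATAAA on the opposite strand, read as TTTATA at -195, and the Fmo4 window at chr1:162812500-162812799 held AGGTCA on the opposite strand, read as TGACCT at -75. GC content was 56.0% in the Fmo5 window and 41.3% to 47.7% in the others. A match describes these letters and is neither a bound site nor a cause.

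Fold changes below are log2((CPM fasting + 0.01)/(CPM fed + 0.01)), and a pair of a gene and a tissue is called higher or lower when this exceeds 0.5 in size and either library reaches 1 CPM. Of the 32 pairs of the 4 genes and 8 tissues, 30 reached 1 CPM, 17 were called higher on fasting and 1 lower. Among the higher pairs, Fmo4 in heart reached 1 CPM in the fasting library alone. Over all genes, 10.2% of pairs were called higher and 13.3% lower, but the 4 genes were picked on these values and nothing is read from the difference. The 30 pairs had a median log2 fold change of 0.65, against -0.05 over all pairs. Fewer cells of a type and less RNA per cell cannot be told apart in these bulk libraries.

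**Figure D1:**
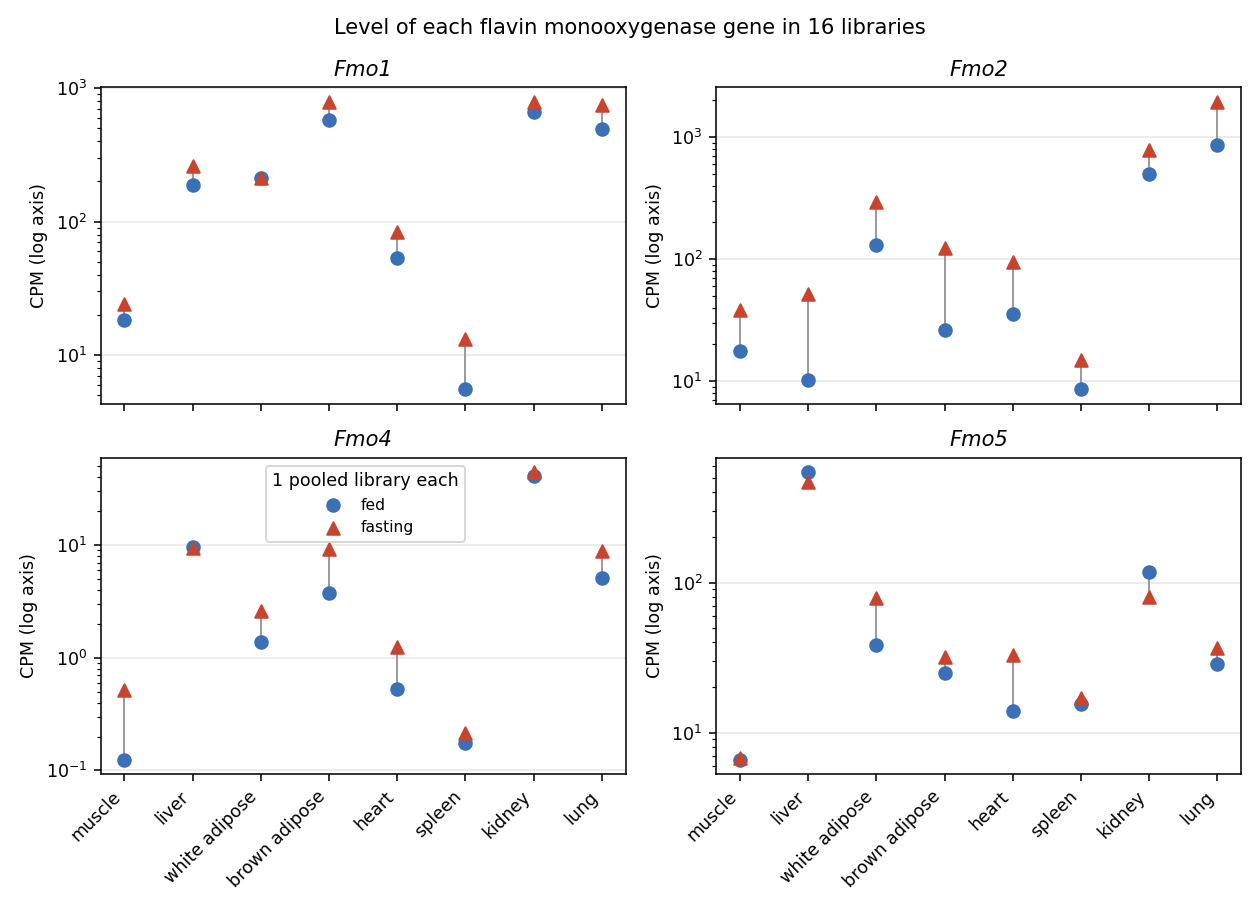
Level of each gene (CPM, log axis) in the fed (circles) and fasting (triangles) library of 8 tissues, 1 pooled library each, with a line joining the libraries of a tissue. Fmo2 was higher in the fasting library of all 8 tissues, by the widest gaps in liver and brown adipose tissue, while Fmo5 was lower in fasting liver and kidney.

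Fmo2, known as the main FMO of the lung in most mammals, was the member with the largest and most general difference. It was called higher on fasting in 8 of 8 tissues, and in 6 of them the log2 fold change exceeded 1, as it did in 3.94% of all pairs. Of 11576 genes with 1 CPM or more in every tissue, 24 (0.207%) were called higher in all 8. In lung, its highest tissue, Fmo2 went from 870.2 CPM fed to 1955 CPM fasting (26156 and 70525 counts), a log2 fold change of 1.17 (95% counting interval, 1.15 to 1.19). Kidney followed at 503 CPM fed and 784 CPM fasting, with 0.64 (0.61 to 0.67), the smallest fold change of Fmo2. White adipose tissue went from 130.0 to 295 CPM, by 1.18 (1.12 to 1.24). These 3 tissues held the highest levels, and their fed and fasting libraries did not overlap between tissues.

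The steepest differences in Fmo2 were in liver and brown adipose tissue, where its fed level was low. Muscle and spleen, with low fed levels too, differed less. Liver held 10.2 CPM fed and 51.8 CPM fasting (235 and 1292 counts), a 5.07-fold difference with a log2 fold change of 2.34 (2.14 to 2.55). Brown adipose tissue held 26.4 and 123 CPM (439 and 1748 counts), a 4.64-fold difference with 2.21 (2.06 to 2.37). In these tissues 0.646% and 0.546% of genes with 1 CPM or more had a higher log2 fold change than Fmo2. Heart went from 35.1 to 94.9 CPM, by 1.43 (1.30 to 1.57). Muscle went from 17.6 to 38.4 CPM, by 1.12 (0.96 to 1.29). Spleen had the lowest levels, 8.57 and 15.0 CPM, and a log2 fold change of 0.81 (0.56 to 1.06). The libraries of brown adipose tissue, heart, liver and muscle overlapped with those of their neighbours in the order, so the order among these 4 tissues is not separated by their spread.

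The share of genes with a greater log2 fold change than Fmo2 was under 5% in 7 tissues, with 4.5% in kidney and 0.871% in lung, and was 10.8% in white adipose tissue, where 22.5% of all genes were called higher. The summed level of adipocyte markers in liver was 37.2 CPM fed and 144 CPM fasting, higher in 6 of 6 genes but by over 0.5 on the log2 scale in 1 of them, and with 0 of them at 0. Skeletal muscle markers in brown adipose tissue went from 2388 to 1097 CPM, lower in 6 of 6, and fibroblast markers from 1295 to 818 CPM, higher in 1 of 6. There, alveolar type 2 cell markers went from 29.3 to 43.8 CPM, higher in 5 of 5, proximal tubule markers from 109.7 to 214 CPM, higher in 3 of 6 with Slc22a6 and Slc5a2 at 0 in both libraries, and hepatocyte markers from 290.2 to 422 CPM, higher in 5 of 7. In lung, where Fmo2 was highest, club cell markers went from 15580 to 16540 CPM, alveolar type 2 cell markers from 14476 to 14701 CPM, endothelial markers from 2757 to 2535 CPM and fibroblast markers from 2050 to 1731 CPM. B cell markers in lung went from 343 to 177 CPM, lower in 5 of 5, and cardiomyocyte markers from 1074 to 563 CPM, lower in 6 of 6. In muscle, fibroblast markers went from 1868 to 1342 CPM, with 3 of 6 lower by over 0.5 on the log2 scale and 2 of 6 higher. B cell markers in muscle went from 48.4 to 37.9 CPM, with 4 of 5 lower by over 0.5 and 0 higher. The part of these markers in the Fmo2 values was not tested.

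**Figure D2:**
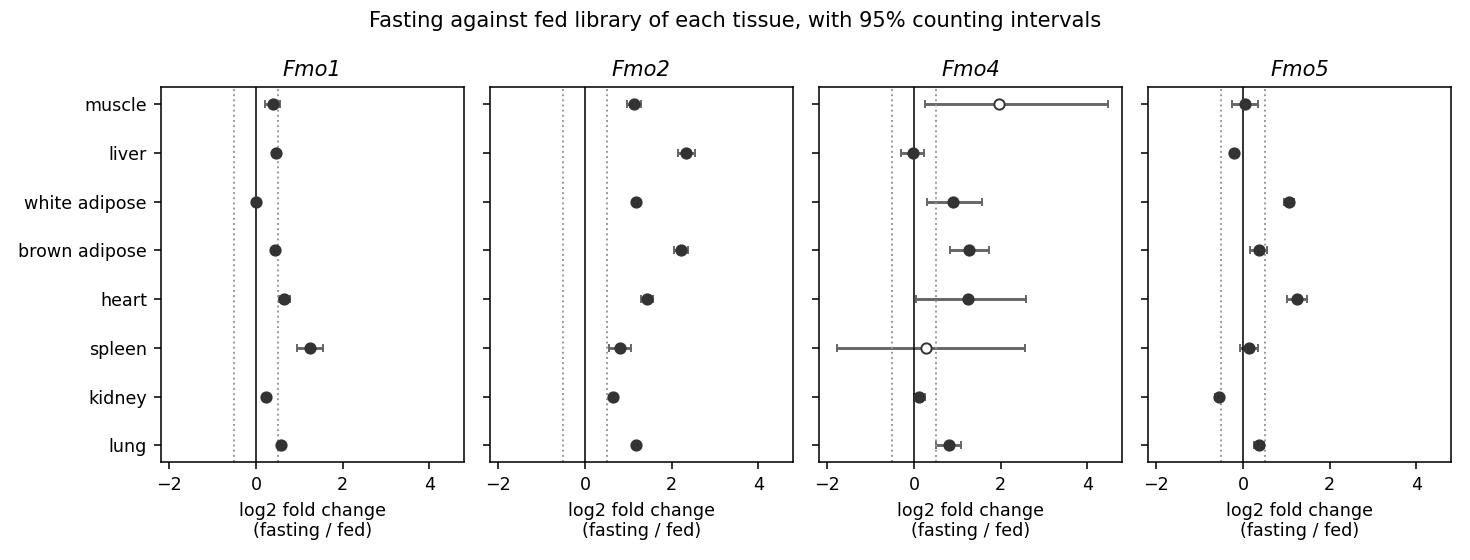
Log2 fold change of fasting over fed in each tissue for the 4 genes, with bars for the 95% counting interval and dotted lines at 0.5 in size. Open circles are pairs under 1 CPM in both libraries, and the points of Fmo2 lie right of 0.5 in all 8 tissues.

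Fmo1, a broad-substrate enzyme that oxidises many drugs and converts hypotaurine to taurine, had smaller fold changes than Fmo2 in 7 of 8 tissues, all but spleen. It was called higher in 3 of 8 tissues and lower in none. Kidney had the highest mean level, with 666 CPM fed and 779 CPM fasting and a log2 fold change of 0.23 (0.20 to 0.26). Brown adipose tissue had 578 and 789.9 CPM, with 0.45 (0.41 to 0.49). Lung had 495 and 744 CPM, with 0.59 (0.56 to 0.62), one of the 3 calls beside a share of 5.27% of lung genes called higher. The libraries of these 3 tissues overlapped, so none of them is set apart as the highest.

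Liver held 189 CPM of Fmo1 fed and 260 CPM fasting, with 0.46 (0.41 to 0.52), short of the call on library totals and past it, at 0.58, with TMM factors. White adipose tissue held 211.2 and 210.9 CPM, a log2 fold change of -0.0019 (-0.057 to 0.053), and there Fmo1 was the one member below 0. With TMM factors this value was -0.11 and with DESeq2 factors -0.12. Liver and white adipose tissue overlapped in level. Heart went from 53.1 to 83.6 CPM, by 0.65 (0.53 to 0.78), called beside 10.1% of heart genes. Muscle went from 18.3 to 23.95 CPM, by 0.39 (0.21 to 0.56). Spleen held the lowest level and the largest fold change of Fmo1, from 5.56 to 13.3 CPM (126 and 369 counts), by 1.25 (0.96 to 1.56), beside 5.99% of spleen genes called higher. In the spleen 0.709% of genes had a higher log2 fold change. Erythroid markers went there from 2961 to 7057 CPM, higher in 4 of 4, beside the acinar genes given above, and their part was not tested.

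Fmo5 inserts oxygen next to a carbonyl group rather than oxidising nitrogen or sulfur as the other members do. On library totals it was the one member with counting intervals wholly above 0 in some tissues and wholly below 0 in others. Liver was its highest tissue, with a mean 5.13 times that of the next, and had 545 CPM fed and 468 CPM fasting (12547 and 11692 counts), a log2 fold change of -0.22 (-0.25 to -0.18). With TMM or DESeq2 factors it was -0.09, and the median of all genes in liver was -0.13 on library totals. Kidney had 118 CPM fed and 79.8 CPM fasting (2642 and 2057 counts), with -0.56 (-0.64 to -0.48), the one pair called lower, beside 9.08% of kidney genes called lower. With TMM factors it was -0.49, short of the call. White adipose tissue went the other way, from 38.2 to 79.2 CPM (889 and 2173 counts), by 1.05 (0.94 to 1.17). The 2 tissues richest in Fmo5 had less of it on fasting and the third had more.

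Heart had the largest fold change of Fmo5, from 13.9 to 32.7 CPM (239 and 499 counts), by 1.24 (1.01 to 1.46). Lung went from 28.6 to 36.9 CPM, by 0.37 (0.24 to 0.49), and brown adipose tissue from 25.0 to 32.1 CPM, by 0.36 (0.16 to 0.55). Both were above 0 beyond counting error and short of the call. Spleen held 15.5 and 17.1 CPM, with 0.14 (-0.06 to 0.34), and muscle 6.604 and 6.82 CPM, with 0.05 (-0.26 to 0.35), so counting error alone spans 0 in these tissues. Neighbours in the order lung, brown adipose tissue, heart and spleen overlapped in their libraries, while lung and brown adipose tissue lay above spleen. In heart, adipocyte markers had a summed level of 374 CPM fed and 832 CPM fasting, higher in 1 of 6 genes with Lep at 0 in both libraries. Hepatocyte markers in heart went from 31.0 to 99.4 CPM, higher by over 0.5 on the log2 scale in 7 of 7, and club cell markers from 28.5 to 43.5 CPM, likewise in 4 of 4. In kidney, proximal tubule markers went from 34103 to 29123 CPM, higher in 1 of 6, and distal nephron markers from 7285 to 8248 CPM, higher in 2 of 5. The summed B cell markers of white adipose tissue were at 346 CPM fed and 82.7 CPM fasting, with 2 of 5 lower by over 0.5 on the log2 scale and 1 of 5 higher. Hepatocyte markers there went from 2517 to 3903 CPM, higher in 4 of 7, proximal tubule markers from 2455 to 4520.3 CPM, higher in 3 of 6, and alveolar type 2 cell markers from 0.472 to 6.31 CPM, higher in 4 of 5 with Sftpb at 0 in both libraries. Cyp2e1 is in both the hepatocyte and the proximal tubule list. The part of these markers was not tested.

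Fmo4, the least studied member, was the lowest of the 4 per kilobase in every library except that of fed liver, where Fmo2 was lower. Kidney was its highest tissue, with a mean 4.46 times that of the next, and had 40.9 CPM fed and 44.4 CPM fasting, a log2 fold change of 0.12 (-0.01 to 0.25). Liver held 9.68 and 9.45 CPM, with -0.03 (-0.30 to 0.24). On library totals the counting intervals of these 2 tissues included 0. With TMM factors the kidney value was 0.20, and with DESeq2 factors it was 0.18. Brown adipose tissue went from 3.79 to 9.20 CPM (63 and 131 counts), by 1.28 (0.83 to 1.73), beside 12.3% of genes called higher in that tissue. Lung went from 5.06 to 8.79 CPM (152 and 317 counts), by 0.80 (0.51 to 1.09). White adipose tissue went from 1.37 to 2.59 CPM (32 and 71 counts), by 0.91 (0.29 to 1.56). Heart went from 0.523 to 1.25 CPM on 9 and 19 counts, by 1.24 (0.04 to 2.58), or by 0.56 with a pseudocount of 1 CPM. These are the 4 tissues where Fmo4 was called higher, the last 2 with intervals that reach below 0.5. Muscle had 3 and 16 counts and spleen 4 and 6, all under 1 CPM, and neither gave a call.

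**Figure D3:**
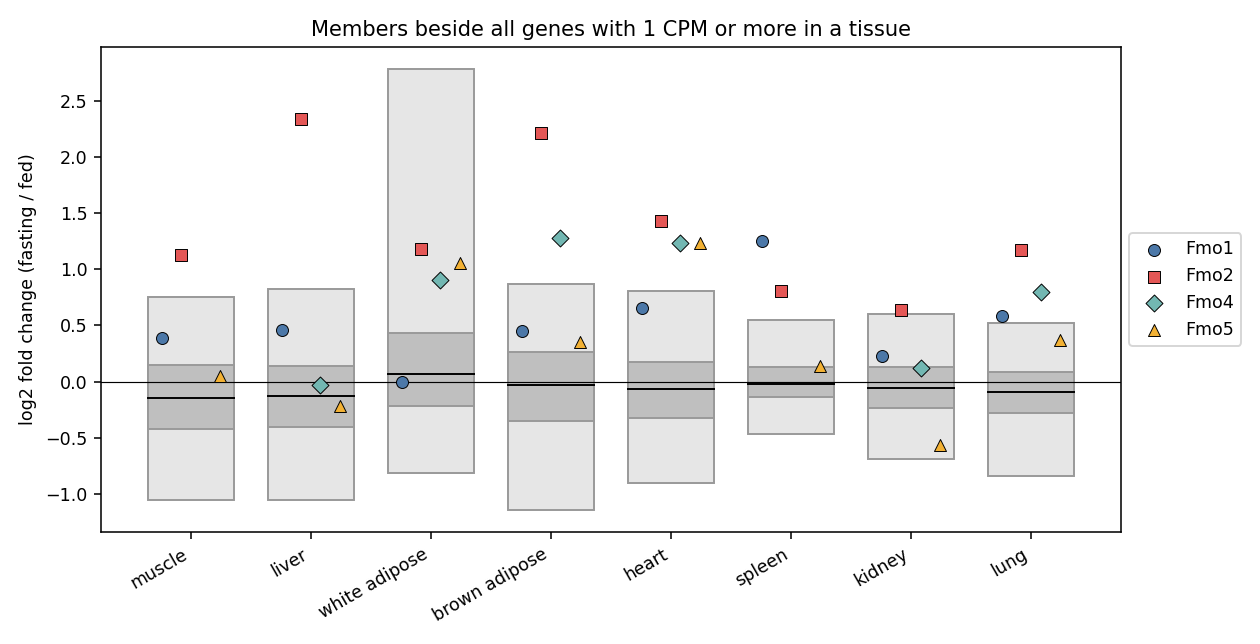
Log2 fold change of each gene beside all genes with 1 CPM or more in that tissue, where the light box spans the 5th to 95th percentile, the dark box the quartiles and the line the median. Fmo2 lies above the light box in every tissue but white adipose, and Fmo5 in kidney lies in its lower part.

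Set side by side by tissue, the 4 genes did not move as a block. All 4 were called higher in heart, where 10.1% of genes were. Fmo4 reached 1 CPM there in the fasting library alone, on 9 and 19 counts, so its call rests on the difference itself. Lung and white adipose tissue each gave 3 calls, Fmo1, Fmo2 and Fmo4 in lung beside 5.27% of genes and Fmo2, Fmo4 and Fmo5 in white adipose tissue beside 22.5%. Brown adipose tissue and spleen gave 2 each, Fmo2 with Fmo4 beside 12.3% of genes and Fmo2 with Fmo1 beside 5.99%. Muscle, liver and kidney gave 1 each, Fmo2, beside 9.39%, 9.32% and 6.56% of their genes. Genes called lower made up 20.3% in muscle, 19.7% in liver, 10.9% in white adipose tissue, 17.8% in brown adipose tissue, 14.8% in heart, 4.47% in spleen, 9.08% in kidney and 12.3% in lung, and Fmo5 in kidney was the one member among them.

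**Figure D4:**
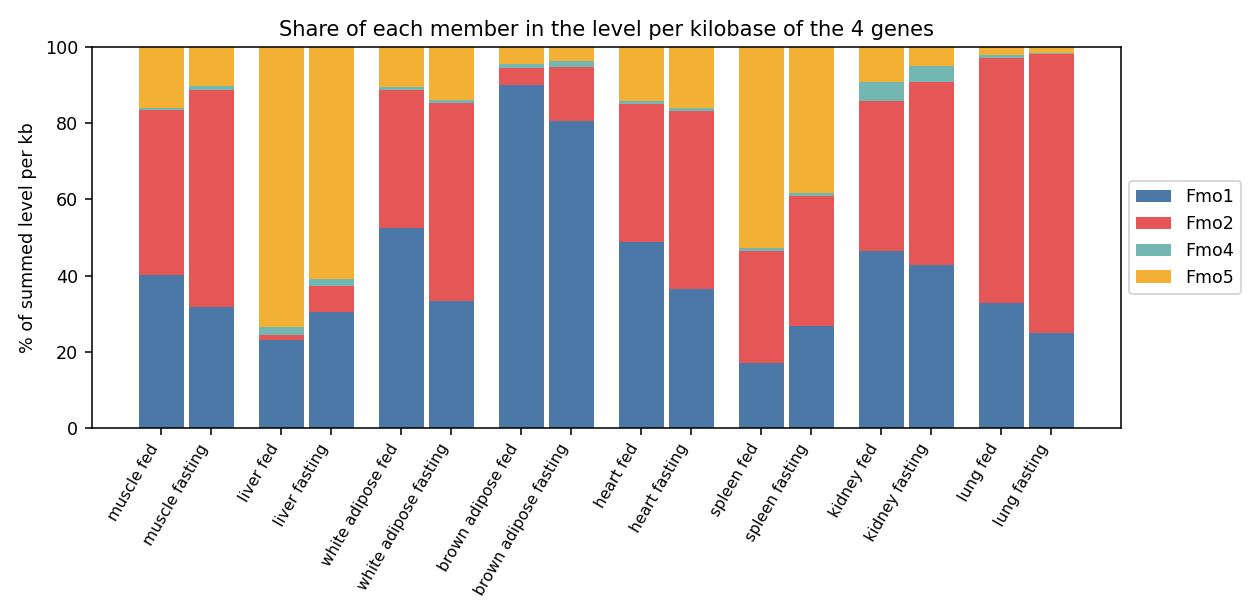
Share of each gene in the summed level per kilobase of the 4 genes, in percent, for each of 16 libraries. The Fmo2 share was greater in the fasting library of all 8 tissues.

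Per kilobase of exon, Fmo1 and Fmo2 made up most of the summed level of the 4 genes in all libraries but those of liver and of the fed spleen. In fed liver Fmo5 held 73.6% of a summed 130.4 CPM per kilobase, and in fasting liver 60.9% of 136. The Fmo2 share of liver went from 1.40% to 6.81%. Brown adipose tissue was mostly Fmo1, 90.0% fed and 80.7% fasting, with Fmo2 at 4.63% and 14.1%. Lung was mostly Fmo2, 64.6% fed and 73.3% fasting, and had the highest summed level, 240.1 and 476 CPM per kilobase. The leading member changed from Fmo1 fed to Fmo2 fasting in 3 tissues. White adipose tissue had 52.5% Fmo1 and 36.3% Fmo2 when fed and 33.2% and 52.2% when fasting. Heart had 48.8% and 36.3%, then 36.5% and 46.6%. Kidney had 46.5% and 39.5%, then 42.7% and 48.3%. In spleen Fmo5 led in both libraries, with 52.6% and 38.4%.

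A model of tissue and treatment over all 16 libraries, fitted with edgeR, gave a log2 fold change on fasting of 1.40 ± 0.20 (SE) for Fmo2, 0.72 ± 0.19 for Fmo4, 0.53 ± 0.13 for Fmo1 and 0.34 ± 0.17 for Fmo5. Refits that each lacked 1 tissue put Fmo2 between 1.25 and 1.503, Fmo4 between 0.62 and 0.88, Fmo1 between 0.44 and 0.62 and Fmo5 between 0.21 and 0.46. The tissues stand in for replicates in this fit although they come from the same 2 pools of mice, so its errors measure the spread between tissues.

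Genes with a tissue pattern like that of a member were sought by Pearson's r of log2(CPM + 1) over the 16 libraries, which share tissues and pools. Nckap1, a subunit of the actin-regulating WAVE complex, was the most like Fmo1 (r = 0.963), followed by Mettl7a1 (0.954) and Arhgap5 (0.924). Fmo2 was most like Tent5b (0.920), Tbx2 (0.916), a T-box transcription factor, and Rsph9 (0.913). Fmo4 was most like Sec62 (0.949), a part of the endoplasmic reticulum translocation machinery, and Gss (0.938), the glutathione synthetase. Fmo5 was most like Selenop (0.961), the plasma selenoprotein made by liver, Upp2 (0.957), a uridine phosphorylase, and Tfpi2 (0.944). Among the members, Fmo1 and Fmo4 were most alike (0.835) and Fmo2 and Fmo5 least (0.169).

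Lists were also tested for the supply of NADPH and flavin, for other microsomal electron carriers and for the taurine pathway. Of 22 genes of these lists in the fit, edgeR called 0 higher or lower at an adjusted p under 0.05, where it called 2.31% of 17296 genes higher and 2.08% lower. At an unadjusted p under 0.05, 8 of the 22 passed, 2 higher and 6 lower, beside 10.6% and 13.1% of all genes, and DESeq2, which called 5.2% of genes higher and 6.09% lower, called H6pd higher and Cyb5b and Cyb5r1 lower. Cyb5r1, a cytochrome b5 reductase, is named after its values were seen. The 7 NADPH genes had a median log2 fold change of -0.22, the 5 flavin genes 0.07, the 5 carriers -0.16 and the 5 taurine genes -0.01, against -0.01 over all genes. H6pd, the NADPH-forming dehydrogenase of the endoplasmic reticulum lumen, had 0.42 ± 0.11 (SE, edgeR adjusted p = 0.0599, DESeq2 adjusted p = 0.00812), and Aldh1l1, of folate metabolism, had -0.09 ± 0.11 (edgeR adjusted p = 0.685). Rfk, the riboflavin kinase, had -0.03 ± 0.07 (edgeR adjusted p = 0.816), and Slc25a32, a mitochondrial carrier, 0.37 ± 0.15 (edgeR adjusted p = 0.157). Cyb5a, the microsomal cytochrome b5, had 0.02 ± 0.10 (edgeR adjusted p = 0.919), and Cyb5b, its outer mitochondrial membrane form, -0.78 ± 0.20 (edgeR adjusted p = 0.0578, DESeq2 adjusted p = 0.00501). Cdo1, which makes the cysteine sulfinate on the way to taurine, had 0.18 ± 0.22 (edgeR adjusted p = 0.649), and the taurine transporter Slc6a6 0.20 ± 0.17 (edgeR adjusted p = 0.523). The fit averages over tissues and can miss a difference held by few of them. Of 173 pairs of a listed gene and a tissue at 1 CPM or more, 19 were called higher and 24 lower. Over all pairs these shares were 10.2% and 13.3%. Named after their values were seen, Por in liver went from 128 to 719 CPM and Pgd in brown adipose tissue from 256.5 to 65.1 CPM.

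The same fit called all 4 genes chosen as controls of the fasting response. Pdk4, the kinase that restrains pyruvate oxidation, rose by 3.05 ± 0.44 (edgeR adjusted p = 0.00943), Fkbp5 by 2.03 ± 0.30 (edgeR adjusted p = 0.011) and Tsc22d3 by 1.30 ± 0.14 (edgeR adjusted p = 0.00318), while Sqle, of sterol synthesis, fell by 1.56 ± 0.29 (edgeR adjusted p = 0.0229). These genes were listed with their direction in these libraries known and are not independent evidence of it. Of the other genes of the family, Fmo9 had 0 counts in all 16 libraries and Fmo6 112 counts in all. Fmo6 was in lung at 0.865 CPM fed and 2.08 CPM fasting (26 and 75 counts), a log2 fold change of 1.26, without a test. Fmo12 and Fmo13 had no matching row in the table used here.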

How the data were processed

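RNA from pooled tissue was sequenced as strand-specific short-read libraries. Per the labels and the submitters' processing notes, the authors used fastp 0.23.2, FastQC 0.11.8, HISAT2 2.2.1.0 (GRCm38) and featureCounts from Subread 2.0. The deposited table holds these raw counts with no normalization, and the length of each gene in bases (an other value, from the authors' counting program). The strand setting and whether reads or pairs were counted are not given in the sources used here. The members, the lists and the tests were chosen with earlier results of these data known.

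CPM came from each count and its library total (pseudocount 0.01), and levels between genes were compared per kilobase of that length. The counting intervals are exact binomial intervals (95%) on the 2 counts of a tissue and cover counting error only, as does the floor of 3 counts. Of 55385 identifiers, 55144 matched a GENCODE symbol without their version. Likeness used genes with 10 CPM or more in 1 library. The lists were tested in edgeR 4.0.16 (R 4.3.3) with TMM factors, filterByExpr, tissue as a block, the quasi-likelihood test and Benjamini-Hochberg adjustment over 17296 genes, leaving 7 residual degrees of freedom. The fit was tested on simulated data, where it recovered 181 of 200 genes changed 4-fold among 17009, with 7 false calls. DESeq2 1.42.0 was an alternative, as were other scalings, filters, folds and pseudocounts. Sequences were compared with Biopython 1.88 in Python 3.11.15. Named genes were the members, the 3 genes most like each (1 of them is not reported here), every listed gene that edgeR called, and otherwise the 2 of a list with the highest mean CPM.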

Additional observations from a re-analysis of the deposited data

Results flagged for a closer look

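Fmo5 went in opposite directions in different tissues, with counting intervals clear of 0 in 6 of them. Its log2 fold change on fasting was -0.22 in liver and -0.56 in kidney, against 1.05 in white adipose tissue, 0.36 in brown adipose tissue, 1.24 in heart and 0.37 in lung. The liver value was -0.09 with TMM or DESeq2 factors. The difference between the tissues was not tested, since each treatment has 1 pooled library per tissue.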

How the results depend on the processing

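Of 128 single fold changes recomputed with TMM factors, DESeq2 size factors, a total without the 10 highest genes or a pseudocount of 1 CPM, 111 moved by less than counting error, 17 moved by more and none that was called changed sign. Fmo4 in liver went from -0.03 to 0.09 with TMM and DESeq2 factors. These factors shifted all genes by 0.12 in liver and by -0.11 (TMM) and -0.12 (DESeq2) in white adipose tissue. Pairs called higher numbered 11 at a log2 fold change of 1 and 15 to 18 otherwise. The 1 lower pair, Fmo5 in kidney, was lost (0 pairs) at a fold of 1, with the whole interval past 0.5 and with TMM factors. Without the liver and spleen libraries, chosen after seeing the data, 14 were higher and 1 lower. The tissue with the highest level of each member was the same with TMM and DESeq2 factors. The edgeR fit called 759 genes (400 higher, 359 lower), against 951 (313 higher, 638 lower) on total counts alone, 677 without a filter, 1832 by DESeq2 and 1 without tissue as a block. Leaving out 1 tissue gave 156 (brown adipose tissue) to 721 (spleen), with 175 without heart, 220 without muscle, 234 without lung, 364 without kidney, 491 without white adipose tissue and 544 without liver. The cause was not tested. By Spearman correlation 1 of the 3 genes most like Fmo1, Fmo4 and Fmo5 remained and 0 for Fmo2, and with a pseudocount of 0.01 CPM 1 remained for Fmo2 and for Fmo4 and 3 for Fmo1 and Fmo5. No paired analysis was possible because the labels give no replicate numbers, other than the pairing of fed and fasting libraries by tissue that the edgeR fit already holds. Depth limits Fmo4 in muscle and spleen, with 3 to 16 counts.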
